A study of Rattus norvegicus with 6 samples.

Results

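Arterial endothelial cells of the rat lung were chosen by their transcripts from single-cell suspensions of whole lung. A cell was a member when it held at least 1 unique molecular identifier (UMI, the tag that counts 1 captured mRNA molecule) of at least 2 of 6 endothelial genes (Cdh5, Cyyr1, Clec14a, Egfl7, Emcn and Sox17), at least 1 UMI of Gja5 or Dkk2, and no UMI of Ptprc, the leukocyte antigen CD45. These values chose the members, so the levels of these genes are description only. The rule took 151 of 25547 cells. The 1604 cells that met the endothelial and Ptprc conditions and held neither Gja5 nor Dkk2 are called other endothelial cells. The Sprague Dawley rats had been given bleomycin (BLM, 5 mg/kg, an agent that causes lung fibrosis) or saline (Control) into the trachea once, 3 rats a group, and small pieces of perfused lung were digested on day 28. Members numbered 5, 6 and 20 in the Control rats and 29, 46 and 45 in the BLM rats.

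Arterial endothelium lines the vessels that carry blood to the capillary bed. It is known for connexin channels between neighbouring cells, for Notch signalling with targets of the Hey family, and for its place on an elastic vessel wall. Gja5 encodes connexin 40, a gap junction protein of arterial endothelium, and Dkk2 encodes a secreted modulator of Wnt signalling. The lung has pulmonary and bronchial arteries, and the rule does not tell them apart.

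The starts of Gja5 and of Hey2, a Notch target that was far higher in the members, are shown because both genes mark the arterial state. Each line gives the 250 bases before the start of the gene in RefSeq, build GRCr8, plus strand, at chr2:187290977-187291226 for Gja5 and chr1:28640850-28641099 for Hey2. Capitals mark TGGGAA on either strand, the core letters recognised by RBPJ, the DNA-binding partner of Notch.
Gja5: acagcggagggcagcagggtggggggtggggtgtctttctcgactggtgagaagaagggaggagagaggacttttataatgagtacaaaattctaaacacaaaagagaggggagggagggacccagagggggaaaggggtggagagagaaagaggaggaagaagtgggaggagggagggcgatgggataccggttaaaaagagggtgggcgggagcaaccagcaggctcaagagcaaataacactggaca
Hey2: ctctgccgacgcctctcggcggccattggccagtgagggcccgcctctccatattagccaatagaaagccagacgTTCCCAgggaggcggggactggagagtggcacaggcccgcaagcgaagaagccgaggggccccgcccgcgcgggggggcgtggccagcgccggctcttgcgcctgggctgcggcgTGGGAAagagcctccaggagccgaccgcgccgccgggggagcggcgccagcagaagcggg
The Hey2 window held 2 matches and the Gja5 window 0. Of 27457 RefSeq windows of this length 21.6% held at least 1 match, and of the 119 windows found for the genes higher in the members than in other endothelial cells 20.2% did. A match describes letters and not a bound site.

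The members were few and unequal in depth. Their summed UMIs were 4297, 8694 and 35175 in the Control rats and 59148, 114866 and 149017 in the BLM rats. The median member held 2128 UMIs, against 1309.5 in other endothelial cells, with 1154 in Control members and 2342.5 in BLM members. Levels below are UMIs per 1000000 summed UMIs of the class and rat (CPM), so that 1 UMI in the members of Control rat 1 already stood at 233 CPM. Across all libraries 314 cell barcodes occurred more than once, in 629 cells, of which 3 were members.

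Transcripts of other cells were found in the members. The 8 alveolar type 2 genes listed summed to 575 to 1848 CPM in the Control rats and 16.9 to 47.0 CPM in the BLM rats, and the 11 macrophage genes to 698 to 1393 and 148 to 1009.9 CPM. The 10 fibroblast genes summed to 0 to 483 and 439.6 to 862 CPM, and the 11 measured mural genes to 171 to 465 and 104 to 503 CPM. All 7 measured T and NK cell genes were at 0, as were the lymphatic genes Mmrn1, Ccl21, Reln and Tbx1, the type 2 gene Sftpd, the fibroblast genes Col1a2 and Mfap4 and the macrophage genes Marco, C1qa and C1qc. Results were repeated without the cells of every class that held 3 or more UMIs of the fibroblast, mural, mesothelial, type 2, airway and erythroid lists. This left out 39 members, 198 other endothelial cells and 33 of the venous-gated cells described further on, so members and comparison cells changed at once.

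Gja5 admitted most members. It was found in 146, Dkk2 in 49, and both in 44. The 5 members with Dkk2 alone came from BLM rats 2 and 3 and could not be fitted against the rest. Their summed Cxcl12, the chemokine ligand of Cxcr4, stood at 2720.2 CPM, where members with Gja5 alone held 392 CPM and members with both 48.2 CPM. Gja5 summed to 3258, 3106 and 2615 CPM in the Control rats and 1522, 1210.1 and 1389 CPM in the BLM rats. Dkk2 summed to 233, 690.1 and 967 CPM in the Control rats and 169, 261 and 570.4 CPM in the BLM rats. The median member held 2, 3.5 and 2 UMIs of Gja5 in the Control rats and 2, 2 and 3 in the BLM rats. Members were chosen by these genes and Control members were shallower, so the levels give no BLM effect.

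The other markers given for the label were then described. They were proposed with results of these data known, so their levels are no test of the label. Mgp (matrix Gla protein, an inhibitor of calcification), Eln (elastin), Fbln5 (fibulin 5, which assembles elastic fibres) and Sbspon (a secreted matrix protein) were each higher in the members than in other endothelial cells in 6 of 6 rats. Mgp stood at 18152, 4371 and 7249 CPM in the Control rats and 12071, 6225 and 5590.0 CPM in the BLM rats, and at 0 to 819 CPM in the other endothelial cells. Eln stood at 4178 ± 2101 against 413 ± 175 CPM (mean ± SD, n = 6), Fbln5 at 1294 ± 443 against 55.6 ± 32.9 CPM and Sbspon at 169.7 ± 58.7 against 10.3 ± 8.65 CPM. The members and the other cells did not overlap for any of the 4 genes.

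The markers were not confined to the members. Among 101 venous-gated cells, the other endothelial cells with a UMI of Slc6a2 or Nr2f2, 22 held none of the 4. Eln stood there at 601 to 2422 CPM over the rats, which overlapped the 1228 to 7214 CPM of the members, and Mgp at 0 to 3059.5 CPM.

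The share of cells with a UMI gave the same order. Mgp was found in 75.5% of the members, 42.6% of the venous-gated cells and 11.3% of all other endothelial cells, and Eln in 76.2%, 66.3% and 24.1%. After each cell was thinned to 500 UMIs, which left 148 members and 1490 others, the shares were 62.2% and 6.17% for Mgp and 54.1% and 11.7% for Eln, and 22% and 31% of thinned venous-gated cells held Mgp and Eln. Vwf (von Willebrand factor, a clotting protein of large vessels) was found in 67.6% and 8.12% of thinned cells.

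The members were not alike. Of 151, 27 held all 4 of these markers, 109 held between 1 and 3, and 15 held none. The 15 fell unevenly, with 9 in Control rat 3, 1 in Control rat 1, 2 in BLM rat 1, 3 in BLM rat 2 and 0 in the other rats, so that they made up 32.3% of Control members and 4.17% of BLM members. After thinning these shares were 41.4% and 16.0%. The 15 cells held Kdr, the main VEGF receptor, at 805 CPM against 81.7 CPM in the other 136, and Efnb2 (ephrin B2) at 3327 against 563 CPM. Cxcl12 stood at 1261 against 295 CPM and Vwf at 1331 against 3765 CPM. The type 2 gene Sftpc stood at 1401 against 52.5 CPM, and its part in these values was not tested. These are sums over cells, with no test.

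Levels also followed how the rule was met. Members with exactly 2 of the 6 endothelial genes (36 cells) held Mgp at 15210.3 CPM and Eln at 5553 CPM, and members with all 6 (13 cells) held them at 931 and 538 CPM. Cxcl12 went the other way, from 139.7 to 1055 CPM. The median depth was 1141.5 UMIs in the first and 3820 UMIs in the second. The 47 members with a single UMI of Gja5 and Dkk2 together held Mgp at 2899 and Cxcl12 at 867 CPM, and the 104 with 2 or more held 8722 and 176 CPM.

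Just outside the rule, 30 cells with Gja5 or Dkk2 and no Ptprc held 1 of the 6 endothelial genes. Their Mgp stood at 17366 CPM and their Vwf at 4713 CPM. A further 12 cells held Ptprc, with the macrophage lysozyme gene Lyz2 at 5964 CPM. The 190 cells with Gja5 or Dkk2 and none of the 6 endothelial genes held the fibroblast collagen Col3a1 at 19452 CPM and Vwf at 145 CPM.

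Arterial cells made up a smaller share of endothelial cells in the BLM rats and a larger share of all cells. In the Control rats 5 of 22, 6 of 37 and 20 of 132 endothelial cells were arterial, which is 22.7% (95% exact Clopper-Pearson interval 7.82 to 45.4), 16.2% (6.19 to 32.0) and 15.2% (9.51 to 22.4). In the BLM rats the shares were 8.06% (5.46 to 11.4), 7.34% (5.42 to 9.66) and 7.80% (5.75 to 10.3). These intervals cover counting error only. Every Control rat lay above every BLM rat. Counting only the members with a UMI of at least 1 of the 4 markers, chosen after seeing the data, the shares were 18.2%, 16.2% and 8.33% in Control and 7.50%, 6.86% and 7.80% in BLM, so that Control rat 3 came close to the BLM rats and the difference of means went from -10.3 to -6.86 percentage points.

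The group means were 18.0% ± 4.10 (SD, n = 3) and 7.73% ± 0.364, and the two-sided exact permutation test over rats gave p = 0.1, the smallest p that 3 against 3 allows, so 0.05 was out of reach. Of all cells 0.272% ± 0.147 were arterial in Control and 0.857% ± 0.279 in BLM (exact permutation p = 0.1), again without overlap. With cells thinned to 500 UMIs before the rule was applied, the shares of endothelial cells were 8.11% ± 2.60 and 2.41% ± 0.574. The piece of tissue taken and the yield of digestion enter these shares, and their part was not tested.

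**Figure D1:**
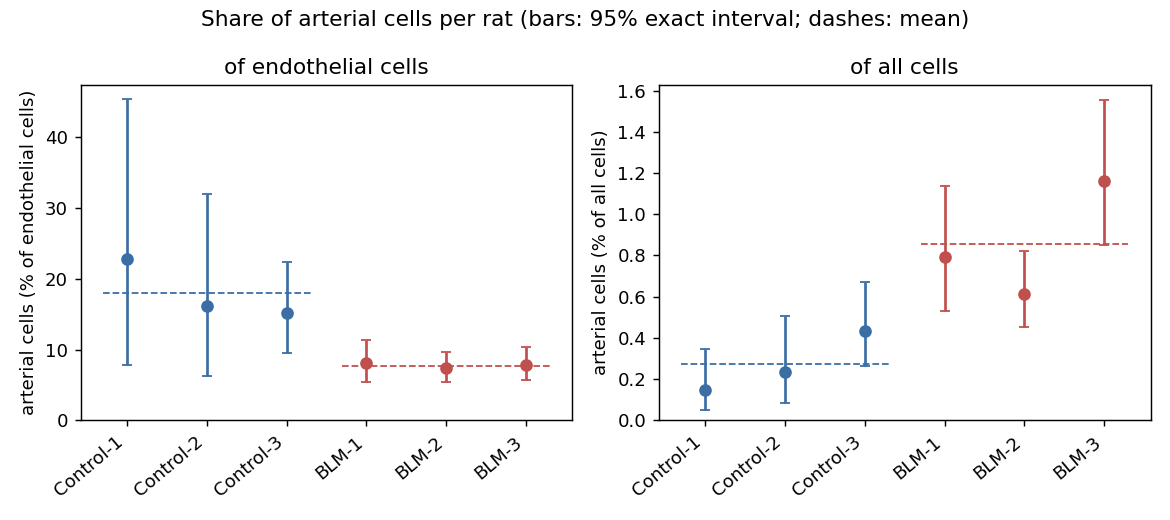
Arterial cells per rat as % of endothelial cells (left) and % of all cells (right); points are rats (blue Control, red BLM), bars 95% exact intervals and dashed lines group means. Control rats lay at 15.2% to 22.7% of endothelial cells and BLM rats at 7.34% to 8.06%, and the groups stand in the opposite order among all cells.

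Against other endothelial cells of the same rats, more of the leukocyte adhesion and coagulation genes tested were higher in the members than lower. The capillary genes that were called were lower. Against the venous-gated cells alone the adhesion and general capillary genes went both ways, as given further on. UMIs were summed per rat and class and tested with edgeR's quasi-likelihood test with the rat as a block, at an adjusted p (Benjamini-Hochberg) under 0.05. Of 1829 genes tested 150 were higher and 162 lower in the members, which is 8.2% and 8.86%, or 17.1% together; with DESeq2 the split was 96 and 159. The genes of the rule and the given markers were kept out of these counts. A gene almost absent from a class can pass the filter on low counts through the other class alone. The counts and medians of gene lists, here and below, are therefore description and no support for a list. Of the called genes, 72 higher and 101 lower ones differed the same way in all 6 rats with at least 50 CPM in the higher class.

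Fn1, fibronectin, had the largest difference of the genes named. It stood at 931, 2646 and 1819 CPM in the Control rats and 3618, 4753 and 2543 CPM in the BLM rats, against 36.8 to 134 CPM in other endothelial cells, a log2 fold of 5.21 ± 0.26 (SE, adjusted p = 1.16e-30). Hey2, a transcriptional repressor downstream of Notch, stood at 389 ± 168 against 25.6 ± 14.3 CPM, log2 fold 4.14 ± 0.31 (adjusted p = 2.5e-20). S100a4, a calcium-binding protein, stood at 954 ± 316 against 60.3 ± 44.5 CPM, log2 fold 4.11 ± 0.27. Each was higher in the members of all 6 rats, with no overlap between the classes.

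Of 23 elastic fibre genes listed, 5 carried a test and were called higher. A gene at 0 in the other class can pass the filter on low counts through the members alone, so this number is no support for the list. Mfap2, a microfibril protein that carried no test, went the other way, with 3 UMIs in the members and 77 in the other endothelial cells, a ratio of 3.61 (95% exact counting interval 1.19 to 17.9). Lox, which cross-links elastin and collagen, stood at 277 ± 98.3 against 9.34 ± 13.3 CPM, with 0 UMIs in the other endothelial cells of the 3 Control rats (log2 fold 4.08 ± 0.33). Bgn (biglycan) was higher by 3.28 ± 0.24, in 5 of 6 rats, and had 0 UMIs in the members of Control rat 1. Ltbp4, which holds latent TGF-beta in the matrix, was higher by 2.16 ± 0.22 in 6 of 6 rats. Ltbp1 (0.93 ± 0.27) and Efemp1 (1.20 ± 0.32) were weaker: Efemp1 was higher in 3 of 6 rats and lost its call without BLM rat 1, and Ltbp1 lost its call without BLM rat 3.

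Of 14 arterial identity genes tested 5 were higher and 1 lower, with a median of 0.43 beside -0.01 over all genes tested. Beside Hey2 and Ltbp4, the higher ones were Htra1, a serine protease of the matrix (2.92 ± 0.28), Cpe, carboxypeptidase E (2.99 ± 0.30), and Clu, clusterin (1.30 ± 0.23), whose call was lost without the cells holding transcripts of other cells. Nrp1, a co-receptor for VEGF and semaphorins, was lower at 446 ± 362 against 1511 ± 628 CPM. Other genes known from arteries did not pass the test. Gja4 (connexin 37) stood at 355 ± 214 against 291 ± 101 CPM (adjusted p = 0.971), Efnb2 at 1152 ± 1034 against 846 ± 361 CPM (adjusted p = 0.857) and the Notch ligand Dll4 at 186 ± 193 against 173 ± 93.9 CPM (adjusted p = 0.253).

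Of 8 Notch pathway genes tested Hey2 was higher and Hes1 lower, the latter at 1653 ± 1021 against 3162 ± 1269 CPM and lower in all 6 rats. Bmx, a kinase of arterial endothelium, was too sparse to be tested. It had a UMI in 16.6% of the members and 0.312% of the other endothelial cells, and in 4.05% and 0.0671% after thinning.

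Of 13 leukocyte adhesion genes tested 6 were higher and 1 lower, with a median of 0.34. Vcam1, which binds integrins of leukocytes, stood at 1949 ± 1054 against 293 ± 247 CPM (log2 fold 3.34 ± 0.25). Cx3cl1 (fractalkine) stood at 193 ± 48.8 against 15.3 ± 13.0 CPM (3.65 ± 0.32) and Selp (P-selectin) at 526 ± 158 against 89.4 ± 48.1 CPM (2.43 ± 0.25). All 3 were higher in every rat. Cxcl16 was higher by 2.35 ± 0.25 in 5 of 6 rats. Icam1 and Jam2 were higher by 0.76 and 0.63, calls that were lost without any 1 of the BLM rats, and for Jam2 also without Control rat 2 and without the cells holding transcripts of other cells. Cxcl10, an interferon-induced chemokine, was lower in every rat, at 82.1 ± 67.7 against 285 ± 85.9 CPM.

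Of 6 coagulation genes tested 4 were higher and 1 lower, with a median of 1.06. Vwf stood at 5119.9, 5981 and 3667 CPM in the Control rats and 5072, 3456 and 2872 CPM in the BLM rats, above the 256 to 2484 CPM of the other endothelial cells in every rat (log2 fold 2.56 ± 0.25, adjusted p = 2.99e-14). Procr, the protein C receptor, stood at 2898 ± 1231 against 554 ± 177 CPM and Plat, tissue plasminogen activator, at 2849.9 ± 1409.8 against 1302 ± 706 CPM. Thbd (thrombomodulin) was lower, at 1752 ± 602 against 2942 ± 649 CPM, a call lost without Control rat 1, Control rat 2, BLM rat 1 or BLM rat 3 and without the cells holding transcripts of other cells. Nos3, the endothelial nitric oxide synthase, stood at 374 ± 77.9 against 90.6 ± 32.8 CPM, higher in all 6 rats. Of 9 vascular tone genes tested Nos3 and Ece1 were higher and Apln and Aplnr lower, with a median of -0.28.

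Large-vessel genes listed as venous were also higher in the members. Of 8 tested, Vwf, Selp, Vcam1, Il33 and Prss23 were higher and Amigo2 lower, with a median of 0.96. Il33, an alarmin, stood at 2843 ± 2348 against 1359 ± 1026 CPM and was higher in 6 of 6 rats. Prss23, a serine protease, was higher by 0.76 ± 0.22 and lost its call without BLM rat 1 or BLM rat 3, and Amigo2, an adhesion protein, was lower by 1.03 ± 0.30 on the log2 scale and lost its call without BLM rat 2 or BLM rat 3.

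Of the capillary genes tested, those called were lower. Of 10 general capillary genes tested 5 were lower and none higher (median -0.69), and of 4 genes of aerocytes, the large capillary cells of gas exchange, 3 were lower (median -2.13). Sema3c, a semaphorin, stood at 72.9 ± 97.4 against 870.5 ± 219 CPM (log2 fold -3.68 ± 0.32), Lpl, lipoprotein lipase, at 68.1 ± 58.7 against 569 ± 318 CPM (-3.03 ± 0.31) and Aplnr, the apelin receptor, at 38.5 ± 66.4 against 507 ± 342 CPM (-3.06 ± 0.38). Kdr stood at 149.8 ± 169 against 797 ± 338 CPM and Apln (apelin) at 45.1 ± 65.4 against 238 ± 254 CPM. All 5 were lower in each of the 6 rats. Capillary genes that were not called could go the other way. Fibin of the aerocyte list had a UMI in 23.2% of the members and 1.43% of the other endothelial cells (8.11% and 0.537% when thinned). For Bmp6 of the general capillary list the shares were 11.9% and 2.24% (2.70% and 0.872% when thinned). Among the genes tested the lowest fold belonged to Fads1, a fatty acid desaturase, with 3 UMIs in the members, all in BLM rat 3, and 541 in the other endothelial cells, a ratio of 25.4 (95% exact counting interval 8.64 to 124). The lymphatic genes Ccl21 and Mmrn1, at 0 UMIs in the members, were at least 162-fold and 68.6-fold lower with the members set at 3 counts over all rats.

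**Figure D2:**
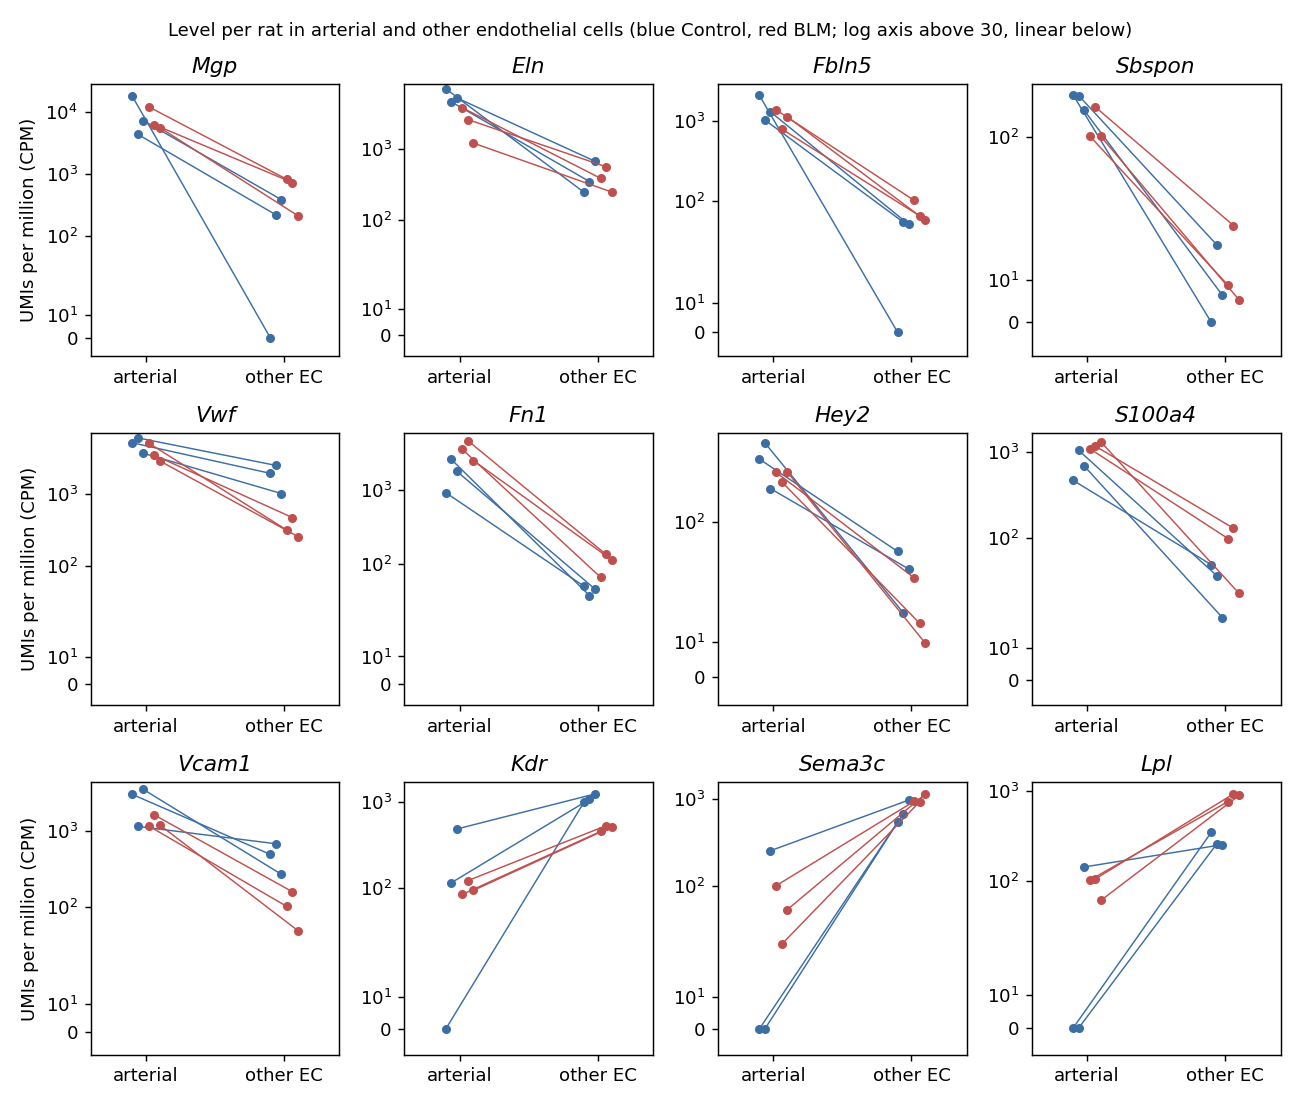
Level per rat (CPM, log axis above 30 and linear below) of 12 genes in arterial and in other endothelial cells, with the classes of a rat joined by a line; blue is Control and red BLM. Mgp, Eln, Fbln5, Sbspon, Vwf, Fn1, Hey2, S100a4 and Vcam1 lie higher in the arterial cells of every rat, and Kdr, Sema3c and Lpl lower.

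Basement membrane genes went both ways. Of 8 tested Col18a1 was higher, at 532 ± 331 against 69.1 ± 51.9 CPM, and Col15a1, Col4a1 and Sparcl1 were lower, with Col4a1 at 409.7 ± 263 against 1779.7 ± 436 CPM and lower in all 6 rats. Of 11 TGF-beta and BMP genes tested Bmp4, Id1 and Id2 were higher and Bmpr2 and Tgfbr3 lower. Id1, at 0.80, lost its call without Control rat 1 or Control rat 3, with DESeq2, without the filter on low counts and with thinned cells. Bmpr2, a BMP receptor whose loss causes hereditary pulmonary arterial hypertension, stood at 614 ± 53.4 against 1071 ± 335 CPM, lower in 6 of 6 rats, and its call was lost without BLM rat 2 and without the cells holding transcripts of other cells. Of 12 genes that the study linked to mechanical stimulus, chosen there on these samples, 5 were higher (Bmp4, Clu, Gja1, Icam1 and Jam2) and none lower, with a median of 0.37, and Bmp4 lost its call without BLM rat 1 and without the cells holding transcripts of other cells. Against the venous-gated cells none was higher and 2 were lower (Aqp1 and Gja1) of 10 tested, with a median of -0.24. The call of Gja1 there, at -1.15, was lost without Control rat 2, BLM rat 1 or BLM rat 2. Its call against other endothelial cells was lost with DESeq2, without the filter on low counts and without the rat as a block. Clu had a UMI in 42.4% of the members and 71.3% of the venous-gated cells. Rgs5, a regulator of G protein signalling that pericytes also express, was the 1 mural gene tested and was higher, at 256 ± 164 against 92.7 ± 89.8 CPM, in all 6 rats, and the part of the mural transcripts given above was not tested.

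Other genes chosen by the size of their fold had varied functions. Sulf1 (a heparan sulfatase), Tm4sf1 (a surface protein of endothelium) and Gata6 (a transcription factor) were higher by 3.49 ± 0.23, 3.10 ± 0.24 and 2.89 ± 0.29, and Nuak1, Ptprj, Kank1 and Cytl1 by 3.04 to 3.52. Scn7a, Marcks, Glp1r, Arap2, Tspan18, Wif1, Pcdh17, Nostrin, Ttyh3 and Col15a1 had log2 folds of -3.25 to -2.29. All 30 genes chosen this way kept their call under every alternative in which they could be tested.

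**Figure D3:**
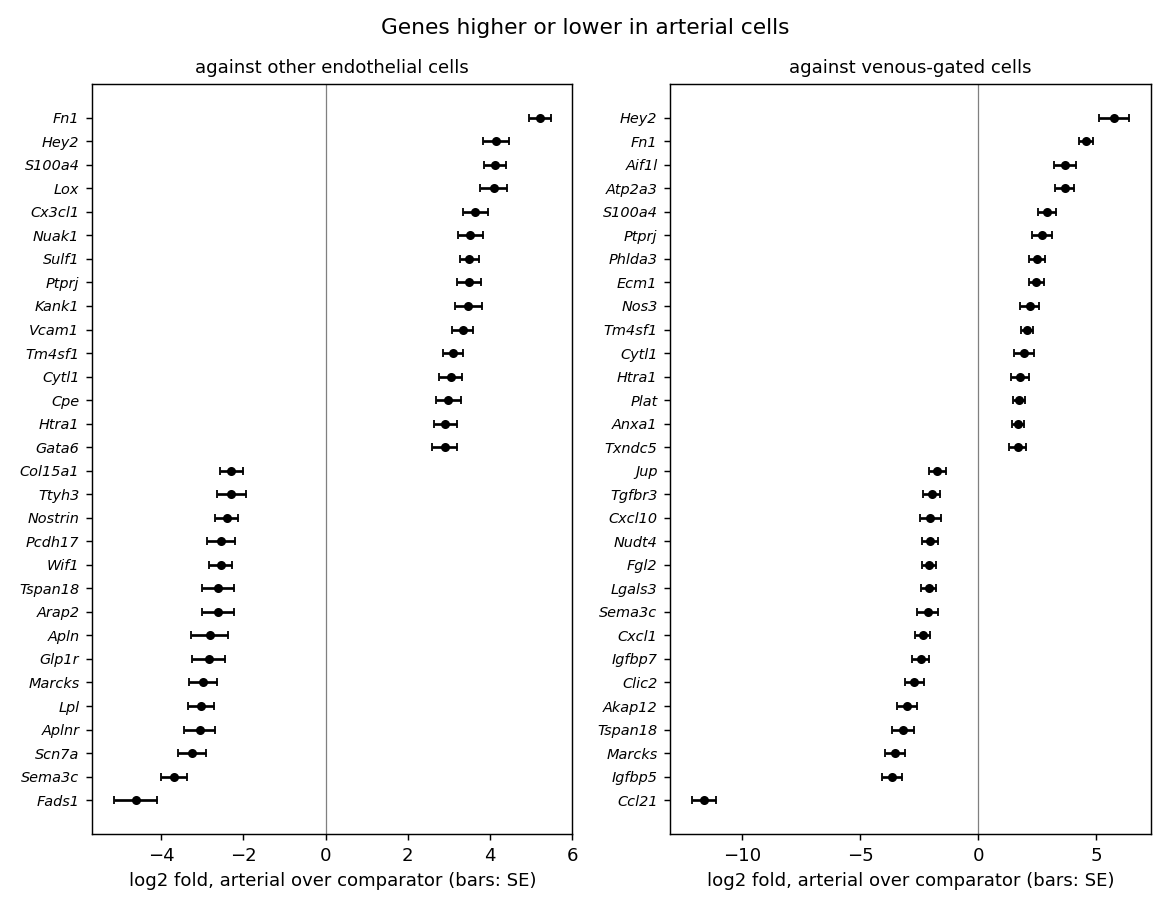
Fitted log2 fold of arterial cells over other endothelial cells (left) and over venous-gated cells (right) for the 15 highest and 15 lowest named genes of each comparison; bars are SE. Fn1 and Hey2 lead both panels (5.21 and 4.14 on the left, 4.56 and 5.75 on the right), and Ccl21 lies lowest on the right.

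Venous endothelium is the other large-vessel class. Of the 101 venous-gated cells the 3 of Control rat 1 were too few to enter, which left 5 rats in the fit. Nr2f2 also marks lymphatic endothelium, and 30 of the 101 cells held 2 or more UMIs of the lymphatic list. Of 1150 genes tested 63 were higher in the members and 74 lower (5.48% and 6.43%, or 11.9% together). Without the cells with lymphatic UMIs, a comparison chosen after seeing the data, 33 were higher and 49 lower of 876.

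Hey2 had the largest fold over the venous-gated cells. The members held 118 UMIs of it, at 227 to 690.1 CPM over the 6 rats, and the venous-gated cells 1 UMI, a ratio of 84.4 (95% exact counting interval 14.9 to 3361; fitted log2 fold 5.75 ± 0.62, adjusted p = 1.18e-05). Fn1 stood at 1819 to 4753 CPM in the members of the 5 rats and 0 to 233 CPM in the venous-gated cells, log2 fold 4.56 ± 0.31. Nos3 stood at 261 to 460.1 and 16.7 to 161 CPM (2.19 ± 0.41), and Plat at 1265 to 5201 and 377 to 1252 CPM (1.73 ± 0.24). Each was higher in the members of all 5 rats and remained called without the lymphatic UMIs. Atp2a3, a calcium pump of the endoplasmic reticulum, and Ecm1, a matrix protein, were higher by 3.66 ± 0.41 and 2.45 ± 0.32, and Aif1l, S100a4, Ptprj, Phlda3, Tm4sf1, Cytl1, Htra1, Anxa1 and Txndc5 by 1.67 to 3.67.

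Of 10 arterial identity genes tested Hey2, Htra1 and Efnb2 were higher and none lower (median 0.65). Efnb2, the ligand of the venous receptor Ephb4, was higher by 1.17 ± 0.35 (adjusted p = 0.0352), a call lost without Control rat 2, Control rat 3 or BLM rat 2. Of 7 TGF-beta and BMP genes tested Eng (endoglin, 1.23), Smad7 (1.44) and Id1 (1.09) were higher and Tgfbr3 lower. Eng lost its call without BLM rat 1 or BLM rat 2, Id1 without BLM rat 2, and Smad7 without the cells with lymphatic UMIs.

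Of 4 elastic fibre genes tested Bgn was higher and none lower, with a median of 0.28. Efemp1 had a UMI in 17.2% of the members and 35.6% of the venous-gated cells (6.76% and 15% when thinned), and Ltbp1 in 29.1% and 31.7% (8.78% and 7% when thinned). Leukocyte adhesion genes went both ways, with Esam and Vcam1 higher and Cd99 and Cxcl10 lower of 11 tested (median -0.09). Plat and Procr were higher of 5 coagulation genes tested (median 0.72), and Procr lost its call without BLM rat 1 or BLM rat 2. Among 7 general capillary genes tested Tmem100 was higher and Sema3c lower (median 0.33). All 3 aerocyte genes tested, Ednrb, Igfbp7 and Kdr, were lower (median -1.70). Tmem100 lost its call without BLM rat 1, BLM rat 2 or BLM rat 3, with DESeq2 and without the cells with lymphatic UMIs. Kdr lost it without BLM rat 1, BLM rat 2 or the cells with lymphatic UMIs, and Ednrb without Control rat 3, BLM rat 1 or BLM rat 2.

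Of 8 venous genes tested Vcam1 was higher (1.54 ± 0.29) and Lyve1 and Prss23 lower. Vwf stood at 2872 to 5981 CPM in the members and 1289.8 to 6134 CPM in the venous-gated cells and did not pass the threshold (log2 fold 0.72 ± 0.25, adjusted p = 0.0775). Prss23, higher in the members than in all other endothelial cells, was lower than in the venous-gated ones, at 171 to 1495 against 1269 to 1938 CPM. That call was lost without BLM rat 1, without BLM rat 2 and without the cells with lymphatic UMIs.

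Ccl21, the lymphatic chemokine, had 0 UMIs in the members and 1798 in the venous-gated cells, at least 838-fold lower with the members set at 3 counts over all rats. Cxcl1, Lyve1, Fgl2 and Nudt4 were lower by the first comparison and were not called without the cells with lymphatic UMIs. The log2 fold of Cxcl1 then went from -2.36 to 0.21 and that of Lyve1 from -1.63 to 0.02. Igfbp5, Marcks, Akap12, Igfbp7, Sema3c, Lgals3, Cxcl10 and Jup remained lower, at -3.46 for Igfbp5, which binds insulin-like growth factors, and -1.29 for Jup, a junction protein. The call of Sema3c was lost without the cells holding transcripts of other cells, at -1.15 (adjusted p = 0.179). Of the genes tested in both comparisons 40 were higher in both, 31.7% of the 126 higher than in other endothelial cells and 65.6% of the 61 higher than in venous-gated cells, and 36 were lower in both, 40.9% of 88 and 50.7% of 71. Both comparisons use the same members.

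Within the members, few genes passed the test between BLM and Control. Of 1000 genes tested 13 were higher and 12 lower in BLM (1.3% and 1.2%, or 2.5% together; edgeR's quasi-likelihood test, adjusted p under 0.05). The type 2 gene sums given above were higher in Control than in BLM members, and their part in these results was not tested. The count moved with single rats: 6 genes were called without Control rat 1, 59 without Control rat 2, 51 without Control rat 3, 21 without BLM rat 1, 10 without BLM rat 2 and 15 without BLM rat 3. Named are the 12 higher and 11 lower genes that were called and whose groups did not overlap. Groups also stood apart for genes that were not called, such as Ahnak (edgeR adjusted p = 0.388). Full separation of 3 against 3 rats has an exact permutation p of 0.1, so it is no support in itself.

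The calls of 3 genes held under every alternative and without any single rat. Anxa1, annexin A1, which limits leukocyte adhesion, stood at 233, 460.1 and 398 CPM in the Control rats and 2604, 3265 and 2617 CPM in the BLM rats, on 1, 4 and 14 and 154, 375 and 390 UMIs (log2 fold 2.89 ± 0.45, adjusted p = 0.000488). S100a10, the partner of annexin A2, stood at 0, 230.0 and 227 CPM against 1116, 1863 and 1423 CPM (2.88 ± 0.52, adjusted p = 0.00276). Amd1, an enzyme of polyamine synthesis, stood at 233, 115 and 256 CPM against 1149.7, 1384 and 1268 CPM (2.53 ± 0.48, adjusted p = 0.00432). For each, the lowest BLM rat lay above 3 times the highest Control rat.

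The same 3 genes were also measured in the other endothelial cells. Anxa1 stood there at 296, 239 and 239 CPM against 678, 665 and 505 CPM, S100a10 at 247, 276 and 368 CPM against 1149.9, 1013 and 901 CPM and Amd1 at 148, 129 and 277 CPM against 2394, 1900.4 and 2100.2 CPM. The difference between the BLM effects of the classes, on the log2 scale, was 1.68 for Anxa1 (adjusted p = 0.196), 1.33 for S100a10 (adjusted p = 0.625) and -0.61 for Amd1 (adjusted p = 0.919), none past the threshold. Sorbs2, a cytoskeletal adaptor, stood at 0, 115 and 114 CPM against 642, 618 and 738 CPM in the members. Its call held without any single rat and was lost without the cells holding transcripts of other cells.

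Of the other higher genes, 4 rested on few Control molecules. Rgs16, a regulator of G protein signalling, had 0 UMIs in the 31 Control members and 15, 31 and 62 in the BLM rats, at least 5.37-fold higher with Control set at 3 counts over the group. Csgalnact1, which starts chondroitin sulfate chains, had 1 UMI in Control and 120 in BLM, a ratio of 17.9 (95% exact counting interval 3.15 to 713). Lgals3 (galectin 3) had 1 and 114 UMIs (17.0, interval 2.99 to 677), and Col8a1, a collagen of vessel walls, had 3 and 156 (7.75, interval 2.60 to 38.0). All 4 lost their call without Control rat 1.

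Pgk1, the 1 gene of 6 tested in glycolysis that was called, stood at 0, 345 and 142 CPM against 1285, 2664 and 530.1 CPM. Emp1, a membrane protein, stood at 931, 1610.3 and 1962 CPM against 5782, 6094 and 4718 CPM and Cst3, cystatin C, at 2559.9, 2530.5 and 1763 CPM against 5884, 6294 and 6100.0 CPM. Cxcl1, a neutrophil chemokine, stood at 233, 0 and 199 CPM against 372, 1480.0 and 852 CPM. All 4 lost their call without Control rat 1 and without BLM rat 2. Ccn2, connective tissue growth factor, was called at 2.33 ± 0.60 with groups that overlapped, 1164, 115 and 199 CPM against 2113, 1767 and 557 CPM, and lost its call without Control rat 1, BLM rat 1 or BLM rat 2 and without the cells holding transcripts of other cells. It was chosen after its values were seen.

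Among the genes lower in BLM were receptors of the cell surface. All 11 lower genes lost their call without the filter on low counts, a fit in which the median log2 fold over all genes was 1.07 in place of 0.11. Adgre5 (CD97, an adhesion receptor) stood at 465, 575 and 483 CPM against 84.5, 43.5 and 87.2 CPM (-2.74 ± 0.53, adjusted p = 0.00442) and was the 1 gene of the 11 that kept its call without any single rat. Calcrl, the receptor for adrenomedullin, stood at 1629, 3106 and 3269 CPM against 710.1, 844 and 812 CPM (-1.76 ± 0.37), a call lost without Control rat 3, BLM rat 1 or BLM rat 2. Notch1 stood at 2094, 460.1 and 1023 CPM against 304, 313 and 322 CPM (-1.65 ± 0.40), a call lost without Control rat 1, Control rat 3, BLM rat 1 or BLM rat 2. The BLM rats lay close together for Notch1 while the Control rats spread widely.

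Il33 stood at 3258, 7246 and 2701 CPM against 1657, 1584 and 611 CPM (-1.66 ± 0.42) and Fbln2, a fibulin of the vessel wall, at 698, 575 and 597 CPM against 355, 60.9 and 114 CPM (-1.95 ± 0.53). Both lost their call without Control rat 1, BLM rat 2 or BLM rat 3, Il33 also without Control rat 2 and Fbln2 without Control rat 3. Calcrl, Notch1, Il33 and Fbln2 also lost it without the cells holding transcripts of other cells. Mettl7a stood at 2559.9, 920.2 and 967 CPM against 203, 269.9 and 369 CPM and lost its call only without Control rat 1 among the single rats. Amigo2, Slco2a1 (a prostaglandin transporter), Tmem100 and Cfb (complement factor B) had log2 folds of -2.87 to -1.71, and each lost its call without at least 3 of the single rats. Scgb1a1, the club cell secretory protein, was lower at 233, 920.2 and 256 CPM against 118, 60.9 and 20.1 CPM, beside airway gene sums of 233 to 920.2 CPM in Control and 20.1 to 118 CPM in BLM.

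Several of these calls changed without the 15 members that held none of the 4 markers, 10 of them Control cells, a comparison chosen after seeing the data. There 9 genes were higher and 9 lower of 728. Calcrl was at -1.21 (adjusted p = 0.141), Tmem100 at -0.95 (0.533 adjusted) and Il33 at -1.54 (0.0931 adjusted). Col8a1, Cxcl1 and Cst3 also lost their call, and Anxa1, S100a10, Amd1, Sorbs2, Pgk1, Emp1, Mettl7a, Fbln2, Cfb and Notch1 remained called. Efnb2, called lower in BLM at -1.70 ± 0.43 with groups that overlapped (2327, 345 and 2615 CPM against 389, 705 and 530.1 CPM), was at -1.36 (adjusted p = 0.105), and lost its call without every single rat but Control rat 2.

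The lists are to be read beside the 2.5% of all genes tested that were called between the groups. Of 14 arterial identity genes tested 3 were lower (Efnb2, Fbln2 and Notch1) and none higher, with a median of -0.69 beside 0.11 over all genes. Fn1 stood at 1799 ± 858 against 3638 ± 1105 CPM (adjusted p = 0.209), Eln at 5768 ± 1295 against 2588 ± 1331 CPM (adjusted p = 0.197) and Hey2 at 461 ± 231 against 317 ± 40.6 CPM (adjusted p = 0.947). Of 8 elastic fibre genes tested Fbln2 alone was called. None was called of 9 leukocyte adhesion genes, 5 basement membrane genes, 7 TGF-beta and BMP genes, 5 coagulation genes and 5 hypoxia genes tested.

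**Figure D4:**
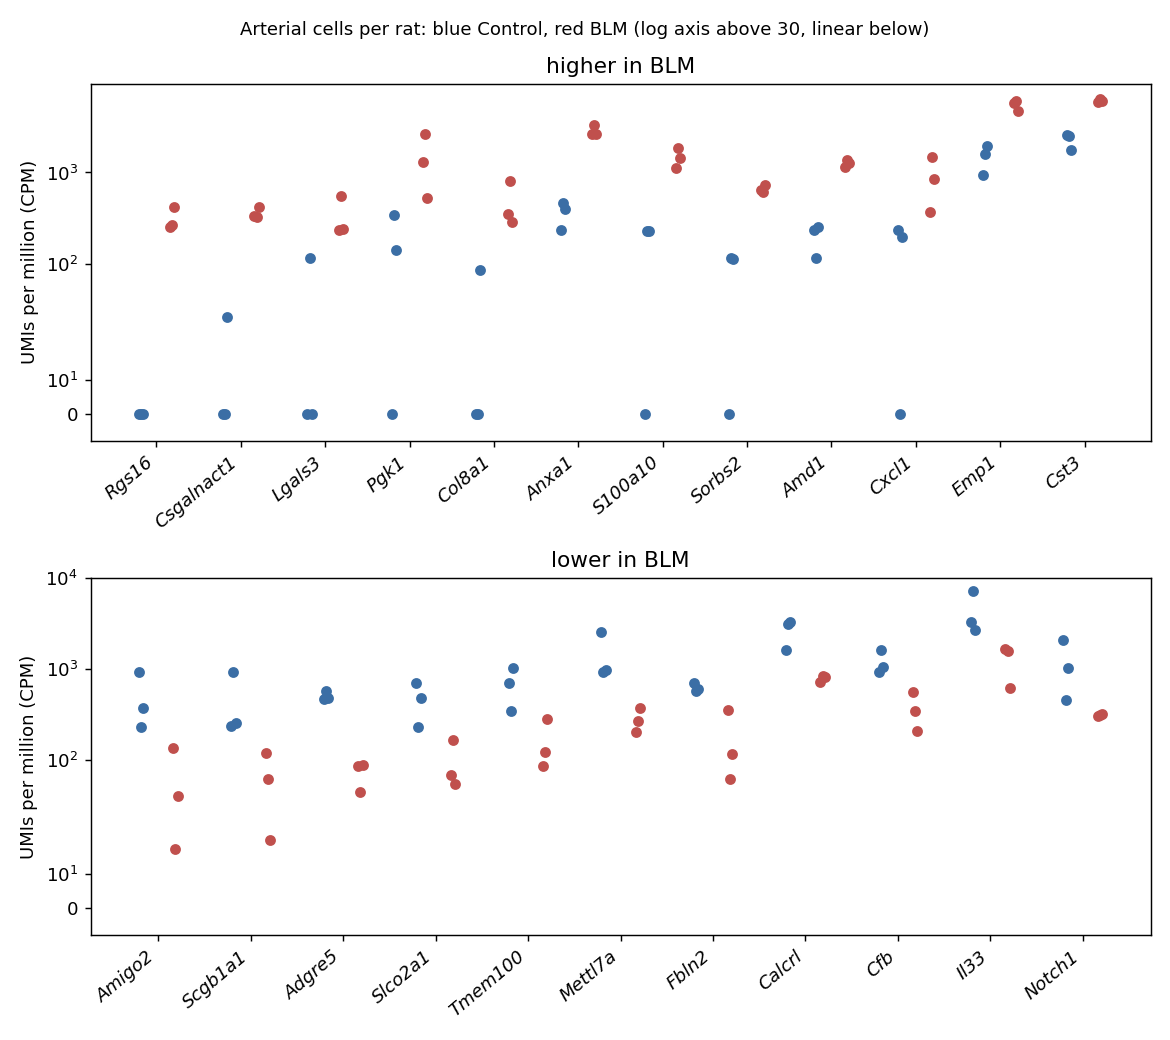
Level per rat in arterial cells (CPM, log axis above 30 and linear below) of the 12 genes called higher (top) and 11 called lower (bottom) in BLM whose groups do not overlap. Blue points are the 3 Control rats and red points the 3 BLM rats. Rgs16 is at 0 in every Control rat, and the BLM rats lie close together for Anxa1, Sorbs2 and Amd1.

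The BLM effect was then compared between the members and the other endothelial cells, by an interaction term with the rat as a block. Of 2591 genes tested 2 had a higher and 3 a lower effect in the members (0.0772% and 0.116%, or 0.193% together). Vwf in the other endothelial cells stood at 1926, 2484 and 1013 CPM against 315, 470.2 and 256 CPM, while in the members it stood at 4923 ± 1169 and 3800.1 ± 1139.5 CPM (SD, n = 3), a difference of effects of 2.19 ± 0.42 (adjusted p = 0.000116). Ccnd1, cyclin D1, stood at 1235, 1822 and 1981 CPM against 580.3, 438 and 418 CPM in the other endothelial cells and at 632 ± 170.0 and 526 ± 42.3 CPM in the members (1.82 ± 0.46, adjusted p = 0.0453). The groups did not overlap in the other endothelial cells for either gene, and overlapped in the members. Both calls were lost without BLM rat 3 (adjusted p = 0.0565 for Vwf), and that of Ccnd1 also without Control rat 2 or BLM rat 2. The other endothelial cells were a mixture, in which 20 of 160 were venous-gated in Control and 81 of 1444 in BLM. Summed Vwf stood at 2144 CPM in the venous-gated cells and 446 CPM in all other endothelial cells. The part of this mixture in the differences was not tested. With limma on the differences per rat and the replicate number as a block, none of the 5 genes of this comparison was called. The adjusted p of Vwf in that limma fit was 0.699. The replicate numbers did not pair Control with BLM rats, as given further on.

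Cxcl12 stood at 0, 18.4 and 83.9 CPM against 877, 832 and 867 CPM in the other endothelial cells and at 0, 0 and 682 CPM against 304, 218 and 469.7 CPM in the members, with a difference of effects of -4.31 ± 0.68 (adjusted p = 6.53e-07). All 24 Control UMIs of the members came from Control rat 3, which held 9 of the 10 Control members without the 4 markers. Without members of that kind the difference was -0.58 (adjusted p = 0.964), and without Control rat 3 it was 3.26 (adjusted p = 0.928). Hba.a2, a globin gene, and Scgb1a1 made up the other 2 calls.

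**Figure D5:**
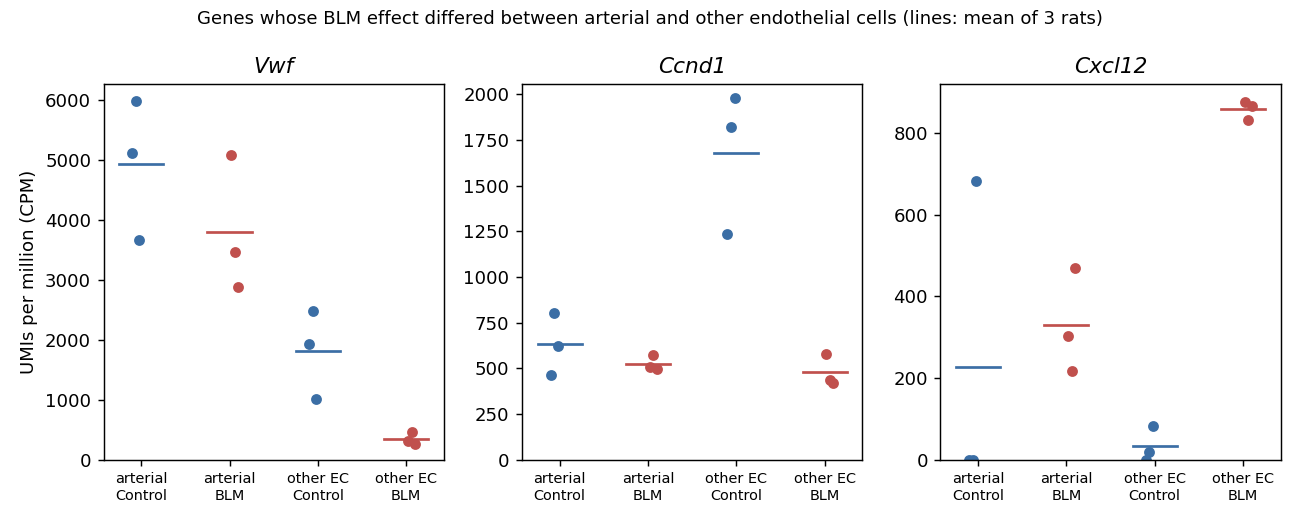
Level per rat (CPM, linear axes from 0) of Vwf, Ccnd1 and Cxcl12 in arterial and other endothelial cells of Control (blue) and BLM (red) rats; lines are means of 3 rats. Vwf falls from a mean of 1808 to 347 CPM in the other endothelial cells and overlaps between the groups in the arterial cells, and 1 Control rat holds all arterial Cxcl12 of Control.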

How the data were processed

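The deposited table held whole UMI counts per cell and gene, made by the authors from BD Rhapsody whole transcriptome libraries of 6 rat lungs. Their notes name the build mm9, a mouse assembly; the sources used here do not give the aligner, counter and cell filter. The header has 1 name fewer than the fields of a cell, so a gene was read from the field that follows the one its name stands in. Cell names end in a letter and a number. The number was taken as the replicate, and the letter as Control or BLM because the cells with each letter number as the study states for that group. No doublet caller was run.

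The members and gene lists were chosen with earlier results of these data known. UMIs were summed per rat and class and tested with edgeR 4.0.16 in R 4.3.3 (filterByExpr, TMM, glmQLFit and glmQLFTest). The p-values were adjusted (Benjamini-Hochberg, threshold 0.05) over the genes of a fit that could be called. Genes of the rule were left out of the calls and the adjustment. So were the given markers against other and venous-gated cells, and Slc6a2 and Nr2f2 against the latter. The venous comparison took rats with at least 5 cells in both classes; the other fits kept all 6 rats, down to 3 arterial cells in Control rat 2 in the fit without cells holding transcripts of other cells. The SE is the absolute log2 fold change divided by the square root of F. CPM are UMIs per 1000000 summed UMIs. Named genes were the largest folds past the threshold that went the same way in every rat fitted (15 a direction, against other or venous-gated cells) or whose groups did not overlap (12 a direction, BLM against Control), with at least 50 CPM in the higher group and 10 UMIs, and members of the lists; loci without a gene name were passed over. DESeq2 1.42.0 and limma 3.58.1 served as alternatives. The tests were also run on simulated counts with the same dispersion for every gene, and those results are not given here. Samples are single rats, so p-values between BLM and Control members measure the spread between rats. With the rat as a block they measure how the difference between the classes spreads over rats. The replicate numbers did not pair Control with BLM rats (correlations of deviations 0.0214, 0.0049 and 0.096 over 1008 genes).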

Additional observations from a re-analysis of the deposited data

Results flagged for a closer look

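The effect of BLM differed between the members and the other endothelial cells in 5 genes, by edgeR's test of the interaction. With limma on the differences per rat and the replicate number as a block 0 genes were called, and 147 had an unadjusted p under 0.05. The log2 differences, members minus others, were 2.19 for Vwf, 1.82 for Ccnd1, -4.31 for Cxcl12, -4.03 for Scgb1a1 and -7.41 for Hba.a2. Scgb1a1 stood at 233, 920.2 and 256 CPM against 118, 60.9 and 20.1 CPM in the members and 0, 442 and 77.4 CPM against 93.8, 156 and 891 CPM in the other endothelial cells, Control first, and its call was lost without BLM rat 3, at -1.94 (adjusted p = 0.641). Hba.a2 stood at 0, 805 and 0 CPM against 16.9, 749 and 6.71 CPM in the members and 0, 18.4 and 6.45 CPM against 90.2, 8945 and 28.0 CPM in the other endothelial cells, where BLM rat 2 held most of it.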

How the results depend on the processing

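Between BLM and Control members 25 genes were called, 16 with DESeq2, 6 with cells thinned to 500 UMIs, 6 to 59 with 1 rat left out, and 26 without the filter on low counts, of which 23 were higher. With the replicate number as a block 22 were called. Against other endothelial cells 312 were called, 596 without the filter, 147 without cells holding transcripts of other cells, 41 with thinned cells and 152 to 424 with 1 rat left out. With the treatment as a covariate in place of the rat as a block 284 were called. Against venous-gated cells 137 were called, 245 without the filter, 89 with DESeq2, 30 with thinned cells, 82 without the cells with lymphatic UMIs and 59 to 147 with 1 rat left out. There the rule with at least 3 endothelial genes, and the fit without cells holding transcripts of other cells, kept 4 rats. The interaction gave 5 calls, 2 to 28 with 1 rat left out, 13 without the cells with lymphatic UMIs, 10 with marker-bearing members, and 0 by limma on differences per rat, the replicate block, where 147 genes had an unadjusted p under 0.05 and the Vwf difference an adjusted p of 0.699. Thinned cells moved the BLM minus Control difference in the share of endothelial cells from -10.3 to -5.69 percentage points and that in all cells from 0.584 to 0.122 points.

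Of the single genes 4 differences changed sign. Against venous-gated cells Cxcl1 went to 0.21 and Lyve1 to 0.024 without the cells with lymphatic UMIs. In the interaction Hba.a2 went to 0.23 without Control rat 2, in a range of -8.39 to 0.23 with 1 rat left out, and Cxcl12 to 3.26 without Control rat 3, in a range of -4.68 to 3.26. Of the other settings of single genes 1732 left the call as it was and 211 ended it. The settings on lymphatic UMIs and on marker-bearing members were chosen after seeing the data. The cause of these changes was not tested, except that thinned or fewer cells leave fewer genes to test (149 between BLM and Control with thinned cells). The 31 Control members held 48166 UMIs in all.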
